A study of Arabidopsis thaliana with 16 samples.

Results

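Genes of salicylate signalling and immunity, 10 in all, were followed through 16 RNA-seq libraries of Arabidopsis thaliana seedlings. They are 10 of the 33602 genes in the table, taken by locus. They were PR1 (AT2G14610), PR2 (AT3G57260), PR5 (AT1G75040), SBT3.3 (AT1G32960), ANK (AT5G54610), FRK1 (AT2G19190), NIMIN1 (AT1G02450), EDS1 (AT3G48090), PAD4 (AT3G52430) and ICS1 (AT1G74710), and all 10 passed the filter on low values with which 20756 genes were tested. The list was selected on what these genes are known for and with their measured differences between 12 h and 0 h in these same libraries in view, for which PR5, SBT3.3, ANK and FRK1 had been noticed. Their 12 h values are therefore given as a description with no test, and tests are given for the differences between the 2 lines. The 4 groups, each of 4 libraries, were the inducible line at 12 h, the inducible line at 0 h, wild type at 12 h and wild type at 0 h. The inducible line was homozygous for ATML1pro:GR-SPCH1-4A-YFP. In this fusion a glucocorticoid receptor domain (GR) and YFP are joined to a form of the stomatal regulator SPEECHLESS (SPCH) that the genotype names SPCH1-4A. The ATML1 promoter is active in the epidermis, so the fusion is driven in that layer, while RNA came from the sampled seedling material as a whole. Both lines were chilled as seed for 2 days and grown for 7 days in shaken liquid medium (90 rpm) with 1% sucrose. Both were collected before treatment (0 h) and 12 h after 100 μM dexamethasone, the ligand of the receptor domain, so dexamethasone and elapsed time cannot be told apart within a line. A 12 h group without dexamethasone was not analysed here, and no other transgenic line was compared, so the transgene and other features of this 1 line cannot be told apart either. Whether the 4 libraries of each group stem from separate cultures is not stated in the labels, so the p-values reflect library-to-library spread that may be technical.

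Salicylate is a plant hormone made in infected or stressed tissue, largely from isochorismate by ICS1 in the chloroplast. The lipase-like proteins EDS1 and PAD4 form a complex that promotes its accumulation, and the receptor protein NPR1 then activates target genes through TGA transcription factors. The targets include the pathogenesis-related (PR) genes, whose secreted products accumulate in the apoplast and vacuole and are used as markers of systemic acquired resistance. NIMIN1 binds NPR1 and dampens PR1 expression. FRK1 encodes a receptor-like kinase used as a marker of responses to microbial patterns such as flagellin. SBT3.3 encodes a subtilisin-like secreted protease linked to immune priming, and ANK (AT5G54610) encodes an ankyrin-repeat protein.

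The stretches of 250 bases that precede the annotated starts of 4 members on which the results turn, PR5, SBT3.3, ANK and FRK1, are shown because the W-box core, the binding motif of WRKY transcription factors, can be read in 3 of them. They were read 5′ to 3′ on the strand of the gene from the TAIR10.1 genome with the RefSeq annotation. The windows are chr1:28177420-28177669 (plus strand) for PR5, chr1:11945000-11945249 (plus strand) for SBT3.3, chr5:22186634-22186883 (minus strand) for ANK and chr2:8329945-8330194 (minus strand) for FRK1. Capitals mark TTGAC or its reverse complement GTCAA.
PR5: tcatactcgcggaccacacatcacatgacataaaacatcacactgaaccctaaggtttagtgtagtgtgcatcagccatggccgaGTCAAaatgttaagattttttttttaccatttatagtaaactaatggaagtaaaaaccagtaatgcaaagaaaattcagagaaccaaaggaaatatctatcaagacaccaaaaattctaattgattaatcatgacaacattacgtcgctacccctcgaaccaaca
SBT3.3: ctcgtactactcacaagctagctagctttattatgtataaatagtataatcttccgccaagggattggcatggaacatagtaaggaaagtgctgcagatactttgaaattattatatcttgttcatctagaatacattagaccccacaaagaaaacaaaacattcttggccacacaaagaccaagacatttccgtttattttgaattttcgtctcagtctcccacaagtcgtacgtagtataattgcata
ANK: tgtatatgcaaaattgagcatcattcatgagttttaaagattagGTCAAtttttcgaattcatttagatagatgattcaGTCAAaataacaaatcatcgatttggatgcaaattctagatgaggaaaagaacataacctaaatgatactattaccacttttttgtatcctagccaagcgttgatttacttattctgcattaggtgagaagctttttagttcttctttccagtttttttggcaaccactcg
FRK1: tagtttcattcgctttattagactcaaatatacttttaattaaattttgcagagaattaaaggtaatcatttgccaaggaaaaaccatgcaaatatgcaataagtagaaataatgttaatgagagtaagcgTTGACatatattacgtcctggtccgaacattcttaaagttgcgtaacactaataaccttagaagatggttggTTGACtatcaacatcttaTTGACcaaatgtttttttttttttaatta
TTGAC on either strand was present in 4 of the 9 members' windows examined, namely those of PR5, ANK, FRK1 and EDS1, and in 44.93% of the windows of 27443 genes. FRK1 held 3 copies and ANK held 2, and 14.11% of all windows held at least 2. No copies overlapped. The window of ANK also overlaps the annotated gene AT5G08225. TGACG (reverse complement CGTCA), the core motif of TGA factors, was in none of the 9 windows and in 18.58% of all windows. A match is a description of these letters and not a measured binding site, and the absence of a match says only that the letters are not in this window.

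Values are normalized read counts, which are reads per gene divided by 1 size factor per library. The libraries held 16251477 to 22944391 reads over genes. SPCH (AT5G53210), the gene carried by the transgene, had 158 to 233 normalized counts in the inducible line at 12 h and 116 to 154 at 0 h, against 59.0 to 72.0 at 12 h and 56.1 to 69.7 at 0 h in wild type. Transcripts of the fusion and of the native gene cannot be told apart in these counts. Of 6 green tissue markers, 6 root markers and 6 guard cell markers, all were above 0 in every library. The summed green markers were between 227851 and 313090 in the inducible line at 12 h, 247597 to 330641 at 0 h, 256342 to 359512 in wild type at 12 h and 276901 to 405826 at 0 h. The summed root markers spanned 1652 to 2250.4, 1665 to 2640, 2130.2 to 3006 and 1891 to 2745 in the same 4 groups, and the guard cell markers 867 to 1166, 807 to 1017, 893 to 1243 and 686 to 1034. One root marker, the phosphate transporter PHT1;1, was lower in the inducible line than in wild type at 12 h (log2 difference −0.85, limma adjusted p = 0.0137). The part of tissue makeup in the results was not tested. In bulk samples, fewer cells of a type and less RNA per cell cannot be told apart.

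PR1 and PR5 had the highest levels per length at 12 h in both lines. Expressed per kilobase of exon, PR1 averaged 2280 normalized counts in the inducible line at 12 h, 2525 in the inducible line at 0 h, 1001 in wild type at 12 h and 1206 in wild type at 0 h. PR5 averaged 1308 at 12 h in the inducible line, against 1075 in wild type, and at 0 h it averaged 247 in the inducible line, against 152 in wild type. PR2 averaged 337 to 557 per kilobase over the 4 groups and EDS1 245 to 268. ICS1 averaged 134 to 145 and PAD4 101 to 112. NIMIN1 was the lowest in 3 of the 4 groups at 6.78 to 14.9 per kilobase. ANK (9.50) and SBT3.3 (8.93) were below NIMIN1 (13.3) in wild type at 0 h. The coefficient of variation (CV) of EDS1 between libraries of a group was 3.37 to 18.5%.

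**Figure D1:**
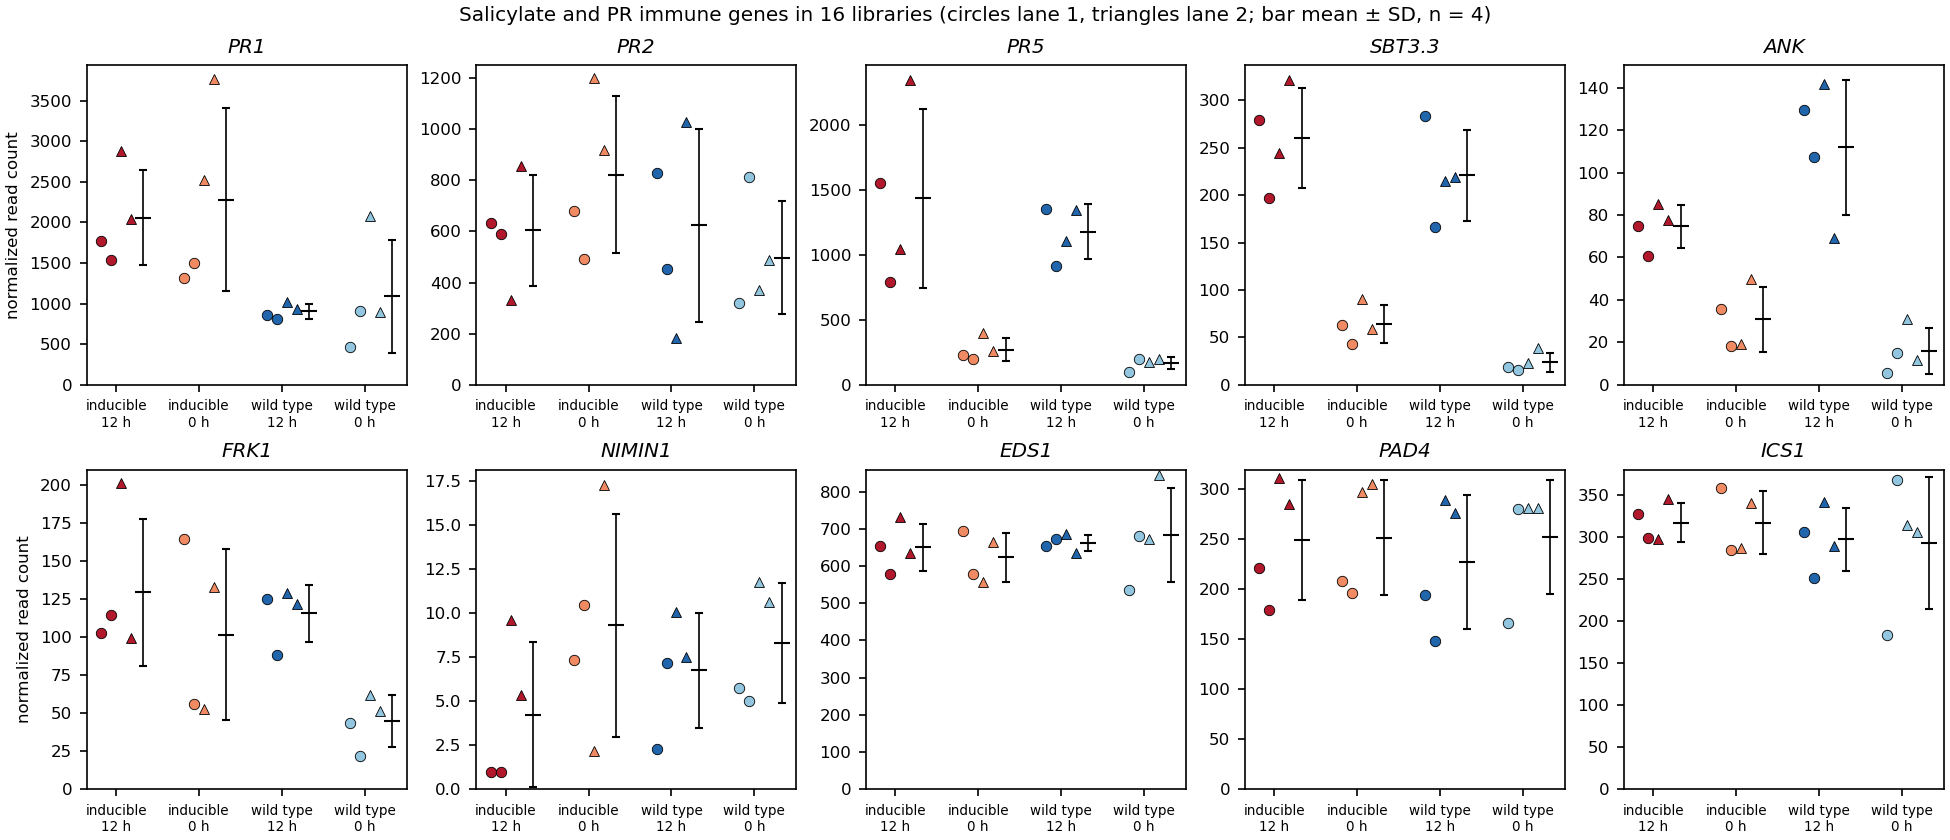
Normalized read count of each of the 10 genes (y axis, linear, from 0) in each of the 16 libraries, by group (x axis), with circles for lane 1, triangles for lane 2 and a bar for the mean ± SD of 4 libraries. PR5, SBT3.3 and ANK stand apart between 12 h and 0 h in both lines, PR1 is higher in the inducible line than in wild type at 12 h without overlap, and EDS1, PAD4 and ICS1 have similar means in all groups.

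PR1, the classic salicylate marker, had a mean more than 2 times as high in the inducible line as in wild type at each time, and neither difference passed the threshold unless the replicate block or the lane entered the fit, or fewer libraries did. Its normalized counts were 1765, 1541, 2875 and 2047 in the inducible line at 12 h (replicates 1 to 4), against 856, 807, 1014 and 933 in wild type at 12 h. Every inducible library lay above every wild-type library at that time. The difference was 1.15 on the log2 scale, or 2.22-fold (SE 0.39, 95% interval 0.33 to 1.98, n = 4 each), and limma's unadjusted p was 0.00945 and its Benjamini-Hochberg adjusted p over all genes 0.145, which missed the threshold of 0.05. With the replicate number as a block, the adjusted p was 0.0273, and with a lane term it was 0.0221. At 0 h PR1 had 1319.5, 1495, 2527 and 3767 normalized counts in the inducible line, against 462, 911, 2078 and 899 in wild type. These groups overlapped, since wild-type replicate 3 exceeded inducible replicates 1 and 2. The log2 difference was 1.14, or 2.21-fold (SE 0.39, 95% interval 0.32 to 1.97), with a limma adjusted p of 0.128. The adjusted p was 0.0233 with the replicate block and 0.0183 with a lane term. Without wild-type replicate 3 at 0 h the log2 difference was 1.52 and the adjusted p was 0.0461. It was 0.0461 to 0.293 over all fits that left out 1 library.

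PR1 also differed between the sequencing lanes in its means. In lane 1 it averaged 1653 normalized counts in the inducible line at 12 h and 1407 at 0 h, against 831 in wild type at 12 h and 686 at 0 h. In lane 2 it averaged 2461 in the inducible line at 12 h and 3147 at 0 h, against 974 in wild type at 12 h and 1489 at 0 h. The mean of lane 2 was thus higher in all 4 groups, and within each lane the inducible line was above wild type at both times. In wild type at 0 h the lanes overlapped, since replicate 4 in lane 2 (899) lay below replicate 2 in lane 1 (911). Between 12 h and 0 h PR1 differed by −0.06 on the log2 scale in the inducible line and by −0.07 in wild type. The order of its group means was the inducible line at 0 h (2277 ± 1127), the inducible line at 12 h (2057 ± 583), wild type at 0 h (1088 ± 693) and wild type at 12 h (903 ± 90.8) (SD, n = 4), and the groups of a line overlapped.

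PR5, which encodes a thaumatin-like antimicrobial protein, had its high values at 12 h in both lines. It had 1548, 789, 1047 and 2344 normalized counts in the inducible line at 12 h, against 228, 196, 401 and 256 in the inducible line at 0 h. In wild type it had 1353, 909, 1103 and 1343 normalized counts at 12 h, against 99.5, 195, 174 and 196 at 0 h. No 12 h library overlapped the 0 h libraries of its line, and the 12 h libraries of the 2 lines overlapped each other. The 12 h minus 0 h difference was 2.33 on the log2 scale (5.04-fold) in the inducible line and 2.85 (7.20-fold) in wild type, ranking 9 and 6 from the highest of 20756 genes. Between the lines PR5 differed by 0.18 at 12 h (95% interval −0.47 to 0.83, limma adjusted p = 0.935) and by 0.69 at 0 h (0.04 to 1.34, adjusted p = 0.231).

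The protease gene SBT3.3 had the same order of groups, with a difference between the lines at 0 h that passed the threshold. Its normalized counts were 279, 197, 244 and 322 in the inducible line at 12 h, against 62.9, 42.9, 90.7 and 59.1 in the inducible line at 0 h. Wild type had 284, 167, 215 and 219 at 12 h, against 18.3, 15.9, 22.4 and 38.2 at 0 h. Both lines were higher at 12 h without overlap. The difference was 2.04 on the log2 scale (4.10-fold, rank 21 of 20756) in the inducible line and 3.22 (9.32-fold, rank 2) in wild type. At 0 h every inducible library lay above every wild-type library, as for 4.56% of all genes. There SBT3.3 was 2.68-fold higher in the inducible line (log2 1.42, SE 0.27, 95% interval 0.86 to 1.98, limma adjusted p = 0.0113, n = 4 each). The adjusted p was 0.00763 to 0.0489 over the fits that left out 1 library. It was 0.0214 in lane 2 alone, where the means were 74.9 in the inducible line, against 30.3 in wild type, and 0.252 in lane 1 alone, where they were 52.9 and 17.1 in the same order. It was 0.0779 when only the 0 h groups entered the fit. At 12 h the lines differed by 0.24 (95% interval −0.32 to 0.80, adjusted p = 0.852).

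ANK had 74.6, 60.7, 85.2 and 77.7 normalized counts in the inducible line at 12 h, against 35.6, 18.1, 19.2 and 50.0 at 0 h. In wild type it had 129, 107, 142 and 69.2 at 12 h, against 5.72, 15.1, 31.0 and 11.7 at 0 h. The 12 h libraries of each line were above its 0 h libraries. The differences were 1.36 on the log2 scale (2.57-fold, rank 89 of 20756) in the inducible line and 2.91 (7.54-fold, rank 4) in wild type. The lines differed by −0.54 at 12 h (95% interval −1.38 to 0.31, limma adjusted p = 0.686) and by 1.01 at 0 h (0.17 to 1.86, adjusted p = 0.183, and 0.64 without wild-type replicate 1 at 0 h), with overlapping libraries at both times.

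The kinase gene FRK1 had 103, 115, 201.1 and 99.2 normalized counts in the inducible line at 12 h, against 165, 56.2, 52.3 and 133 at 0 h, and these groups overlapped. In wild type it had 125, 87.9, 129 and 122 at 12 h, against 43.4, 21.8, 62.0 and 51.0 at 0 h, with no overlap. The 12 h minus 0 h difference was 0.46 on the log2 scale (rank 1138 of 20756) in the inducible line and 1.44 (2.71-fold, rank 87) in wild type. In the inducible line it was 0.17 in lane 1 alone and 0.75 in lane 2 alone. It was 0.75 without replicate 1 at 0 h, 0.24 without replicate 2 at 0 h, 0.21 without replicate 3 at 0 h and 0.23 without replicate 3 at 12 h. Between the lines FRK1 differed by 0.11 at 12 h (95% interval −0.67 to 0.90, limma adjusted p = 0.983) and by 1.09 at 0 h (SE 0.37, 0.30 to 1.88, adjusted p = 0.127). The 0 h difference passed with the replicate block (adjusted p = 0.0427) and with DESeq2 on the recovered reads (0.0311).

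ANK and FRK1 overlap annotated genes on the other strand, and the strand setting of the counting is not given in the sources used here, so that reads in the overlaps cannot be assigned. ANK (chr5:22184545-22186633) shares 66 bases with RPL24 (AT5G54600), which averaged 2832 (12 h) and 2695 (0 h) normalized counts in the inducible line, against 3053 and 3590 in wild type. FRK1 (chr2:8326049-8329944) shares 175 bases with AT2G19180, which averaged 157, 185, 164 and 138 in the same groups. SBT3.3 (chr1:11945250-11948650) shares 1 base with AT1G32970.

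**Figure D2:**
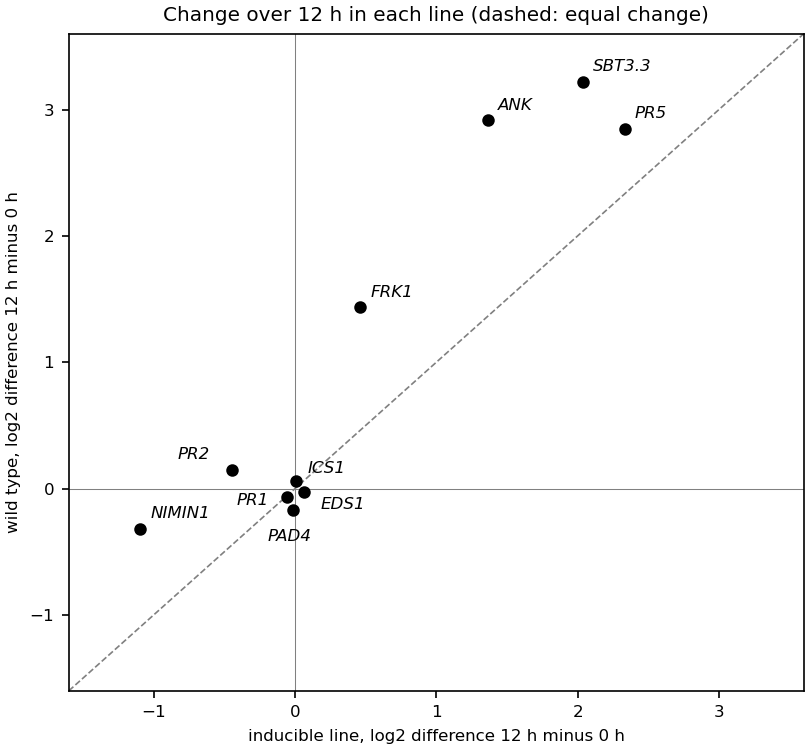
The 12 h minus 0 h difference of group means on the log2(normalized count + 1) scale for the inducible line (x axis) and for wild type (y axis), 1 point per gene, with a dashed line of equal change. PR5, SBT3.3, ANK and FRK1 lie above the dashed line at 1.44 to 3.22 in wild type and 0.46 to 2.33 in the inducible line, and the other 6 genes lie within 0.32 of 0 in wild type. In the inducible line PR1, EDS1, PAD4 and ICS1 lie between −0.06 and 0.06, PR2 at −0.45 and NIMIN1 at −1.1. That value of NIMIN1 was −2.31 in lane 1 alone and 0.12 in lane 2 alone.

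For EDS1, ICS1 and PAD4, which act upstream of the PR genes, the libraries of the groups overlapped in every comparison. EDS1 had 655, 580.0, 733 and 634 normalized counts in the inducible line at 12 h and 695, 579, 557 and 664 at 0 h, against 654, 673, 686 and 635 in wild type at 12 h and 536, 681, 672 and 845 at 0 h. The lines differed by −0.03 at 12 h (95% interval −0.30 to 0.24) and by −0.12 at 0 h (−0.39 to 0.15) on the log2 scale. ICS1, the main enzyme of pathogen-induced salicylate synthesis, averaged 317 ± 23.1 normalized counts in the inducible line at 12 h, 317 ± 37.6 at 0 h, 297 ± 37.8 in wild type at 12 h and 293 ± 78.0 at 0 h. Its difference between lines was 0.10 at 12 h (95% interval −0.27 to 0.47) and 0.15 at 0 h (−0.21 to 0.52). PAD4 averaged 249 ± 60.1 in the inducible line at 12 h, 251 ± 57.4 at 0 h, 227 ± 67.2 in wild type at 12 h and 252 ± 57.4 at 0 h. PAD4 was higher in lane 2 than in lane 1 in every group, at 298 against 200 in the inducible line at 12 h. Over all 6 of these line comparisons the limma adjusted p was 0.654 to 0.998, and the intervals, not the p-values, bound the differences.

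PR2, which encodes a beta-1,3-glucanase, varied between libraries without an order by group. It averaged 604 ± 215 normalized counts in the inducible line at 12 h, 823 ± 307 at 0 h, 624 ± 378 in wild type at 12 h and 498 ± 221 at 0 h, and ranged from 184 to 1030.2 within wild type at 12 h alone. Its 12 h minus 0 h difference was −0.45 on the log2 scale in the inducible line, against 0.15 in wild type, and in the inducible line it was −0.24 without replicate 3 at 0 h and −0.19 without replicate 3 at 12 h. The line difference was 0.15 at 12 h (95% interval −0.91 to 1.2) and 0.74 at 0 h (−0.31 to 1.79), with limma adjusted p of 0.984 and 0.438. NIMIN1 had low counts. It had 0.969, 0.980, 9.58 and 5.36 normalized counts in the inducible line at 12 h and 7.34, 10.5, 2.13 and 17.3 at 0 h, against 2.27, 7.16, 10.04 and 7.48 in wild type at 12 h and 5.72, 5.02, 11.8 and 10.6 at 0 h. The 4 groups held 18, 39, 27 and 32 reads in that order. Its 12 h minus 0 h difference was −1.1 on the log2 scale in the inducible line, against −0.32 in wild type, with overlapping libraries in both. In the inducible line this difference was −2.31 in lane 1 alone and 0.12 in lane 2 alone. Between the lines NIMIN1 differed by −0.81 on the log2 scale at 12 h (95% interval −2.16 to 0.53, limma adjusted p = 0.713) and by −0.03 at 0 h (−1.38 to 1.31, adjusted p = 0.987).

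For the 12 h minus 0 h comparisons, the groups did not overlap for 3 of the 10 members in the inducible line, PR5, SBT3.3 and ANK, all higher at 12 h, where 5.72% of all genes were higher without overlap. In wild type they did not overlap for 4 members, the same 3 and FRK1, where 4.46% of all genes were higher without overlap. The members' median log2 difference was 0.03 in the inducible line, against 0.10 in wild type, and over all genes tested it was 0.01 in the inducible line, against −0.00 in wild type. Since these contrasts brought members to notice, nothing is read from the counts or from the ranks of these differences.

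Between the lines at 12 h, 0 of 10 members passed limma's adjusted threshold, where 3.4% of all genes did. PR1 passed at an unadjusted p under 0.05, where 13.8% of all genes did, and edgeR and DESeq2 called 0. It also passed the adjusted threshold with the replicate block (6.42% of all genes passed), with the lane term (6.81%) and with only the 12 h groups in the fit (2.83%). PR1 was also the 1 member without overlap, where 4.29% of all genes were higher without overlap. At 0 h, 1 of 10 members, SBT3.3, passed, where 1.99% of all genes did, and 3 passed with the replicate block (PR1, SBT3.3 and FRK1), where 11.3% of all genes did. In lane 1 alone 0 passed, where 1 of 20756 genes did. At an unadjusted p under 0.05 there were 5 members at 0 h, where 18.8% of all genes passed. The median difference at 0 h was 0.72 over the members against 0.00 over all genes. At 0 h 8 of 10 members lay above 0, where 50.3% of all genes did. At 12 h the median was 0.13 against 0.01, and 7 of 10 members lay above 0, where 52.2% of all genes did. The 12 h and 0 h comparisons use separate libraries of each line, and both sets also enter the 12 h minus 0 h differences, so that the choice of members can bear on them.

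The interaction of line and time subtracts wild type's 12 h minus 0 h difference from that seen in the inducible line, and it passed for 0 of 10 members, where 0.511% of all genes passed. At an unadjusted p under 0.05 there were 2 members, where 11.6% of all genes passed, and edgeR and DESeq2 called 0. With the replicate block 1 passed, where 2.5% of all genes did. SBT3.3 had an interaction of −1.18 (SE 0.38, 95% interval −1.98 to −0.39, limma adjusted p = 0.202, and 0.0397 with the replicate block). ANK had −1.55 (SE 0.57, 95% interval −2.75 to −0.35, adjusted p = 0.278, and 0.153 with the block). FRK1 had −0.97 (−2.09 to 0.14, adjusted p = 0.503) and PR5 −0.52 (−1.43 to 0.40, adjusted p = 0.702). The value of PR5 was −0.79 without inducible replicate 4 at 12 h, −0.27 without inducible replicate 2 at 12 h, −0.31 without inducible replicate 3 at 0 h and −0.29 without wild-type replicate 1 at 0 h. The median was −0.56 over the members and −0.00 over all genes. It uses the same wild-type libraries in which PR5, SBT3.3, ANK and FRK1 had been noticed, so that the choice of members can bear on it.

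**Figure D3:**
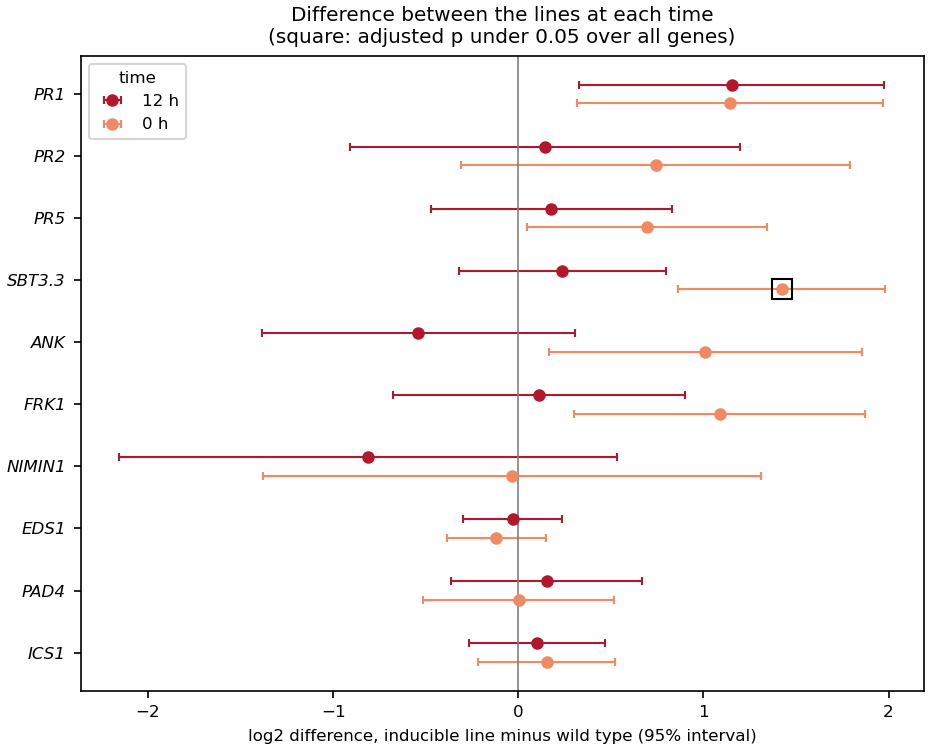
Log2 difference, inducible line minus wild type, with its 95% interval (x axis) for each of the 10 genes (y axis) at 12 h (dark) and at 0 h (light), from limma. A square marks an adjusted p under 0.05 over all genes, reached by SBT3.3 at 0 h (1.42), while PR1 lies at 1.15 at 12 h and 1.14 at 0 h.

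Lists of genes around the members held 99 genes, 91 of which passed the filter. In the inducible line 6 of the 91 rose and 9 fell at 12 h relative to 0 h by limma's adjusted threshold (16.5%, against 5.12% of all genes), and 8 rose and 17 fell with the replicate block, where 8.88% of all genes passed. In wild type 8 rose and 3 fell (12.1%, against 4.72%), and 14 rose and 4 fell with the block, where 13.3% of all genes passed. Between the lines 3 were higher and 2 lower at 12 h (5.49%, against 3.4%), and 9 were higher and 0 lower at 0 h (9.89%, against 1.99%). The block gave 8 higher and 3 lower at 12 h, where 6.42% of all genes passed, and 28 higher and 0 lower at 0 h, where 11.3% of all genes passed. The same shares of all genes apply to the counts of each list below, and a count in a short list can lie near them. In lane 1 alone 0 passed at 0 h, where 1 of 20756 genes did, and in lane 2 alone 20 did, where 8.89% of all genes did. With only the wild-type groups in the fit, the calls over time of PAL2, AZI1, EFR, LORE, WRKY22, WRKY33 and BG3 in wild type were lost (adjusted p 0.0634 to 0.131). In lane 1 alone 8 pathway genes passed over time in the inducible line, where 1.77% of all genes did. The calls lost there were those of AZI1, FLS2, FMO1, NPR3, WRKY38, WRKY62 and a pattern-triggered immunity gene not named for that comparison. WRKY33 alone of the 11 in wild type passed in lane 1 alone, and 0 pathway genes passed between the lines at 12 h. In lane 2 alone 11 passed over time in the inducible line, where 3.6% of all genes did. ALD1, AZI1, FLS2 and the same unnamed gene lost their calls there. Also lost in lane 2 alone were the calls over time of AZI1, LORE, ORA59, PR4, WRKY22 and WRKY33 in wild type. So were those of CBP60g, PAL4 and WRKY33 between the lines at 12 h.

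Among the 8 genes of salicylate synthesis and export other than ICS1, 0 rose and 1 fell in wild type over time, and 0 changed in the inducible line. With the block 1 rose and 2 fell in wild type and 3 fell in the inducible line, 1 was higher and 1 lower between the lines at 12 h, and 2 were higher at 0 h. The gene that fell without the block was PAL2, a phenylalanine ammonia lyase of the second route to salicylate (log2 difference −0.52, limma adjusted p = 0.0385), a call lost in 6 of 16 fits that left out 1 library (adjusted p up to 0.106). PAL4 was lower in the inducible line than in wild type at 12 h, at 123 ± 10.1 against 194 ± 21.2 normalized counts (−0.65, adjusted p = 0.00756). EDS5, which exports the precursor from the chloroplast, and PBS3, which conjugates it to glutamate, passed in no comparison without the block. With it the EDS5 level of the inducible line exceeded that of wild type at 0 h (log2 0.65, adjusted p = 0.00622) and EDS5 fell in that line over time (−0.47, adjusted p = 0.0286). PBS3 was higher in that line at 12 h (0.80, adjusted p = 0.011) and at 0 h (1.09, adjusted p = 0.00203) with the block, and rose in wild type (0.72, adjusted p = 0.0141). PBS3 averaged 188 normalized counts in the inducible line at 12 h and 141 at 0 h, against 112 in wild type at 12 h and 67.3 at 0 h.

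Of the 5 tested transcriptional regulators of salicylate synthesis, 2 were higher in the inducible line than in wild type at 0 h and 1 at 12 h, and with the block 3 and 2 were. Over time 1 fell in the inducible line, and 2 with the block. WRKY70, a regulator of salicylate-responsive genes, averaged 677 ± 73.4 normalized counts in the inducible line against 296 ± 69.6 in wild type at 0 h (log2 1.21, limma adjusted p = 0.00359). It fell to 291 ± 67.2 in the inducible line at 12 h (−1.24, adjusted p = 3.96e-04), against 244 ± 42.3 in wild type at 12 h. SARD1, a direct activator of ICS1, averaged 199 ± 34.4 in the inducible line against 86.2 ± 21.5 in wild type at 0 h (1.22, adjusted p = 0.00798). CBP60g, which acts with SARD1, averaged 184 ± 36.3 in the inducible line against 92.2 ± 27.7 in wild type at 12 h (1.02, adjusted p = 0.0169, and 0.0618 without replicate 3 of the inducible line and 0.0677 without replicate 2 of wild type at 12 h). TBF1 was listed at 0 in all 16 libraries.

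Among 7 tested genes of salicylate conversion, UGT74F1 and MES1 changed, and the block left the counts as they were. UGT74F1, which glucosylates salicylate, rose in both lines, to 323 ± 65.5 normalized counts at 12 h against 105 ± 15.9 at 0 h in the inducible line (log2 1.60, limma adjusted p = 8.7e-05) and to 239.9 ± 65.3 against 95.1 ± 14.96 in wild type (1.29, adjusted p = 0.00161). MES1, a methyl salicylate esterase, fell in the inducible line to 473 ± 159 at 12 h against 1233 ± 203 at 0 h (−1.42, adjusted p = 5.2e-04). In wild type it averaged 1146 ± 142 at 12 h and 1188 ± 333 at 0 h. MES1 was the 1 pathway gene past the threshold in the interaction (−1.41, SE 0.30, adjusted p = 0.0495, 1.1% of the 91 against 0.511% of all genes). It missed the threshold with edgeR (0.0638), without the filter on low values (0.0708) and in 13 of 16 fits that left out 1 library (adjusted p up to 0.124). With the block, 10 pathway genes passed, all lower, where 2.5% of all genes passed. They were MES1, EDS5, WRKY70, WRKY62, WRKY38, NPR3, TGA1, ALD1, WRKY22 and AT1G32970.

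Of 17 genes of salicylate perception, 3 fell in the inducible line and 0 changed in wild type over time, and with the block 4 fell in the inducible line and 2 rose in wild type. At 0 h 2 were higher in the inducible line than in wild type, and 6 with the block. NPR3, a salicylate receptor, averaged 692 ± 75.6 normalized counts at 12 h against 1047 ± 90.6 at 0 h in the inducible line (log2 −0.60, limma adjusted p = 0.0117). At 0 h it was higher than the 617 ± 129 of wild type (0.78, adjusted p = 0.00707, and 0.0581 with only the 0 h groups in the fit and 0.427 in lane 1 alone). WRKY62, which with WRKY38 restrains basal defence, averaged 42.3 ± 14.2 at 12 h against 106 ± 27.2 at 0 h in the inducible line (−1.33, adjusted p = 0.00786). It averaged 33.5 ± 7.31 in wild type at 0 h, which was lower than the inducible line (1.62, adjusted p = 0.00796). WRKY38 fell to 23.8 ± 9.79 against 100.3 ± 57.7 at 0 h (−1.88, adjusted p = 0.012, and 0.0513 without replicate 4 of the inducible line at 0 h). NPR1 passed in no comparison without the block, and with it at 0 h (0.48, adjusted p = 0.00721) and over time in wild type (0.39, adjusted p = 0.0148). It averaged 1162 and 1267 in the inducible line at 12 h and 0 h, against 1189 and 919.8 in wild type. Over the 10 partners of EDS1 and helper immune receptors, 0 passed in any comparison, and with the block 1 fell in the inducible line and 4 were higher there than in wild type at 0 h.

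Of 5 genes of the N-hydroxypipecolate and systemic signal list, 1 rose and 2 fell in the inducible line, and as many with the block. ALD1 and FMO1, which act in making N-hydroxypipecolate, fell by 1.76 (limma adjusted p = 0.00519) and 1.03 (adjusted p = 0.00356) on the log2 scale. With the block ALD1 was lower in the inducible line than in wild type at 12 h (−1.15, adjusted p = 0.0252). FMO1 averaged 153 ± 40.8 normalized counts at 12 h against 313 ± 72.8 at 0 h. AZI1, a lipid transfer protein gene of systemic immunity, rose in both lines, by 0.95 in the inducible line (adjusted p = 0.0234) and by 0.86 in wild type (adjusted p = 0.0454). Leaving out 1 library ended the call of AZI1 in 3 of 16 fits in the inducible line (adjusted p up to 0.086) and in 11 of 16 in wild type (up to 0.144).

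Of 13 genes of pattern-triggered immunity, 3 rose and 2 fell in the inducible line, and 2 rose and 2 fell in wild type. With the block 3 rose and 4 fell in the inducible line, and 3 rose and 2 fell in wild type. WRKY22 fell to 167 ± 23.2 normalized counts at 12 h against 642 ± 124 at 0 h in the inducible line (log2 −1.93), and to 147 ± 32.9 against 275 ± 62.1 in wild type (−0.90, limma adjusted p = 0.0139, and 0.0881 in lane 1 alone, 0.0911 in lane 2 alone and 0.073 with only the wild-type groups in the fit). WRKY33, a regulator of camalexin synthesis, fell by 1.35 in the inducible line and by 0.73 in wild type (adjusted p = 0.0187). In wild type the difference of WRKY33 was −1.05 in lane 1 alone (adjusted p = 0.0134) and −0.40 in lane 2 alone (0.186). The receptor kinase genes LORE and EFR rose in wild type by 0.52 (adjusted p = 0.0304) and 0.71 (adjusted p = 0.0204). LORE rose by 0.80 in the inducible line (adjusted p = 9.89e-04), as did the flagellin receptor gene FLS2 by 0.62 (adjusted p = 0.0256). At 0 h, 4 of the 13 were higher in the inducible line than in wild type, and 5 with the block. CYP81F2, an enzyme of indole glucosinolate modification, averaged 999 ± 254 against 367 ± 68.6 normalized counts (1.43, adjusted p = 8.45e-04). WRKY33 averaged 2479 ± 195 against 1044 ± 286 (1.29, adjusted p = 0.00155). WRKY22 differed by 1.23 (adjusted p = 0.00489) and RBOHD, the NADPH oxidase of the oxidative burst, by 0.83 (adjusted p = 0.015). At 12 h CYP81F2 (1.14, adjusted p = 6.94e-04) and WRKY33 (0.66, adjusted p = 0.0334) were higher in the inducible line, and 3 genes with the block. WRKY33 at 12 h missed the threshold in 8 of 16 fits that left out 1 library (adjusted p 0.0051 to 0.103), and leaving out 1 library also ended the call of FLS2 in 5 fits (up to 0.0932), of EFR and LORE in wild type in 4 each (up to 0.0743 and 0.0998), of RBOHD in 3 (up to 0.0607) and of WRKY33 over time in wild type in 2 (up to 0.0569).

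**Figure D4:**
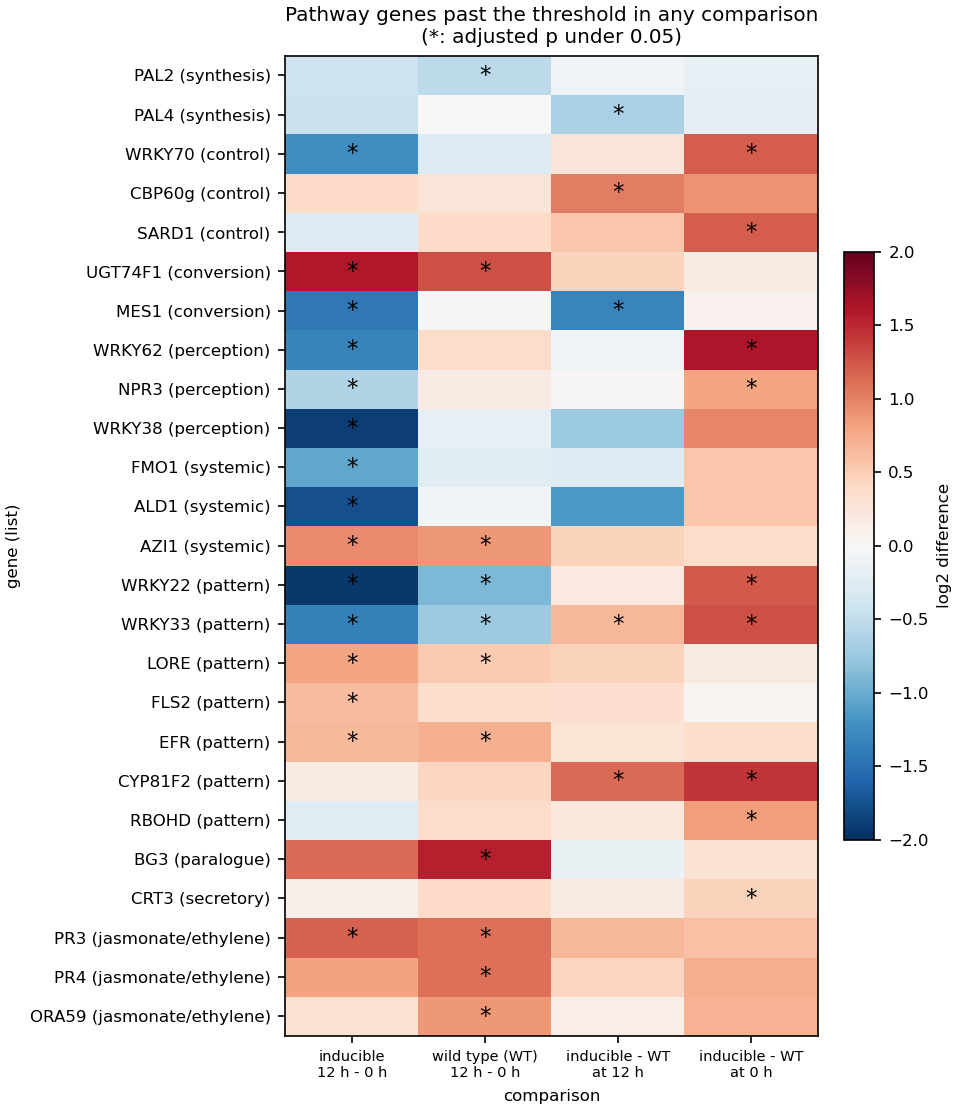
Log2 differences (colour) of the pathway genes that passed limma's adjusted threshold of 0.05 in at least 1 of 4 comparisons, with genes and their lists down the page and comparisons across it, and an asterisk where the adjusted p was under 0.05. WRKY22, WRKY33, WRKY70, NPR3 and WRKY62 carry asterisks both for a fall in the inducible line and for a higher level in that line at 0 h. WRKY22 and WRKY33 also carry one for a fall in wild type, and UGT74F1 carries one in both lines over time.

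The falls in the inducible line and the differences between lines at 0 h share the inducible 0 h libraries. WRKY22, WRKY33, WRKY70, NPR3 and WRKY62 passed in both comparisons. They fell by 1.93, 1.35, 1.24, 0.60 and 1.33 over time, and stood 1.23, 1.29, 1.21, 0.78 and 1.62 higher than wild type at 0 h. WRKY22 and WRKY33 also fell in wild type (log2 −0.90 and −0.73). All of the genes named above missed limma's adjusted threshold in the interaction without the block. With the block WRKY22, WRKY70, NPR3 and WRKY62 passed it.

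Close relatives and neighbours of the members were examined because reads can be shared between similar genes and the handling of such reads is not given in the sources used here. Of the 13, 7 passed the filter. BG3, a glucanase gene near PR2, rose in wild type to 96.4 ± 36.7 normalized counts at 12 h against 32.4 ± 14.5 at 0 h (log2 1.55, limma adjusted p = 0.0177), and in the inducible line it had 89.3 ± 45.1 against 37.4 ± 5.47 (1.13, adjusted p = 0.075, and 0.0101 with the block). In wild type the adjusted p of BG3 was 0.0604 without replicate 4 at 0 h, 0.0592 without replicate 4 at 12 h, 0.0634 with only the wild-type groups in the fit and 0.14 in lane 1 alone. The other 6 passed in no comparison without the block. SBT3.5 (AT1G32940), a subtilase gene close to SBT3.3, averaged 438 and 340 in the inducible line at 12 h and 0 h, against 311 and 215 in wild type. The adjacent subtilase gene AT1G32970 averaged 15.7 ± 2.42 and 24.7 ± 6.13 in the inducible line at 12 h and 0 h, against 26.5 ± 6.93 and 12.9 ± 5.95 in wild type. Its 12 h minus 0 h difference was −0.61 in the inducible line, against 1.1 in wild type, and neither passed, though with the block that in wild type did (adjusted p = 0.0251). At 0 h the block also called AT1G32970 (1.01, adjusted p = 0.0406) and SBT3.5 (0.63, adjusted p = 0.0318) higher in the inducible line. PRB1, a relative of PR1, averaged 75.0 and 74.6 in the inducible line and 82.5 and 60.8 in wild type at 12 h and 0 h. Its line difference was −0.09 at 12 h and 0.25 at 0 h. That of PR1 was 1.15 and 1.14 and missed the threshold in the main fit, and no test compared these genes. TLP-3, a relative of PR5, averaged 21.3 and 23.4 in the inducible line and 18.2 and 15.6 in wild type. The subtilase gene AT1G32950 averaged 27.0 and 24.6 in the inducible line at 12 h and 0 h, against 22.5 and 18.6 in wild type. AT3G48080, the neighbour and close relative of EDS1, averaged 80.5 and 67.3 in the inducible line, against 100.6 and 71.0 in wild type. The 6 that did not pass the filter were BG1 (AT3G57270), AT1G75050, AT1G32980, AT5G54620, AT2G19210 and AT2G19230.

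The genes whose profiles lay nearest to those of 4 members were found by the root-mean-square distance between log2(normalized count + 1) profiles over the 16 libraries, each centred on its own mean. For PR1, whose own root-mean-square deviation was 0.78, they were LHT7 (0.41), AT2G32210 (0.47) and AT1G56150 (0.48). For PR5, with 1.39, they were AT3G04000 (0.56), PYD4 (0.58) and MYB62 (0.60). For SBT3.3, with 1.45, they were AT3G28153 (0.54), AT5G39520 (0.59) and WAK3 (0.61). For ICS1, with 0.23, they were AT5G16340 (0.13), AT3G52490 (0.13) and KLCR3 (0.14).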

How the data were processed

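Per the labels, an RNeasy Micro kit gave the RNA, which was sequenced as TruSeq poly-A libraries, with replicates 1 and 2 of each group in 1 lane and replicates 3 and 4 in a second. TopHat, SAMtools, HTSeq, DESeq2 and the TAIR10 build are named in the submitters' processing notes. How strand and multi-mapping reads were handled is not given in the sources used here. As deposited, the signal was the read count per gene divided by 1 size factor per library: 100% of values were within 0.001 read of a whole number of reads in each library.

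Since these are not raw counts, the main test was limma (version 3.58.1, R 4.3.3) on log2(normalized count + 1), with trend and robust moderation. A gene needed 10 or more normalized counts in 4 or more libraries, and the 20756 such genes entered 1 fit of 4 group means over 16 libraries, with Benjamini-Hochberg adjustment and a threshold of 0.05. Fold changes are on this scale, which understates changes of low genes. On the recovered reads, edgeR 4.0.16 called 1067 genes over time in the inducible line, 978 in wild type, 685 between lines at 12 h, 411 at 0 h and 107 in the interaction. DESeq2 1.42.0 was a further alternative. Symbols and positions came from RefSeq on TAIR10.1, matched for 32835 of 33602 genes. The upstream window of 1 member is not reported here. A count of 0 allows up to 3 reads, and such limits cover counting error only.

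The members and gene lists were chosen with earlier results of these data known. All members, all relatives of members and, in each comparison and list, up to 4 genes with the smallest adjusted p past the threshold are named. Other pathway genes named, EDS5, PBS3, NPR1, TGA1 and TBF1, were chosen after their values were seen. Replicate numbers are taken from the labels. Deviations of same-numbered libraries from their group means correlated at 0.521 to 0.718 in all 24 pairs. Those of other numbers in the same lane correlated at 0.533 to 0.765, so that the replicate block cannot be told apart from lane. Deviations of libraries from different lanes correlated at −0.747 to −0.532 in all 48 pairs. The main fit held no term for lane, so that spread between lanes is part of its error. Blocked counts stand beside those of the members and of each list they change.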

Additional observations from a re-analysis of the deposited data

Results flagged for a closer look

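Within the 40 combinations of member and group, 2 libraries stood far from the other 3 of their group by Dixon's criterion, and chance flags about 1 in 20 groups. FRK1 had 201.1 normalized counts in replicate 3 of the inducible line at 12 h, against 99.2 to 115 in the other 3 libraries. PAD4 had 166 normalized counts in replicate 1 of wild type at 0 h, against 279.6 to 281 in the other 3 libraries. The 12 h minus 0 h difference of MES1, the methyl salicylate esterase gene, differed between the lines, with an interaction of −1.41 on the log2 scale (limma adjusted p = 0.0495, and up to 0.124 with a library left out).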

How the results depend on the processing

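The settings tried were pseudocounts of 0.5 and 5, no filter on low values, TMM factors, edgeR, DESeq2, a replicate block, a lane term, each lane alone, only the groups compared, and each library left out. The 70 tested gene results had 1877 refits with an adjusted p. Of these, 1678 kept direction and side of the threshold, 147 lost the call, 9 gained it and 43 reversed. The reversed DESeq2 value of NIMIN1 at 0 h had no adjusted p and is not among the 43. No reversed value carried a call. Where a value moved, the cause was not tested, except that a lane alone holds fewer libraries.

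Member calls at 0 h were 1, where 1.99% of all genes passed. They became 3 with the replicate block (11.3% of all genes), 2 with the lane term (12.7%) and 2 with DESeq2 (6.55%). They became 0 in lane 1 alone (1 of 20756 genes) and 0 with only the groups compared (0.665%). With a library left out they were 1 to 2, and 2 without wild-type replicate 3 at 0 h (0.747%). Member calls at 12 h were 0, where 3.4% of all genes passed, and stayed 0 with a library left out. They became 1 with the replicate block (6.42%), the lane term (6.81%) or only the groups compared (2.83%). In the interaction the replicate block gave 1, where 2.5% of all genes passed. In lane 1 alone 5 members, 4 higher and 1 lower, did not overlap in the inducible line over time, where 47.9% of all genes did not.

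A percentage after a pathway count is the share of all genes fitted that were called with that setting. Pathway calls in the inducible line over time were 15 (5.12%). They became 25 with the replicate block (8.88%), 24 with the lane term (9.26%) and 8 in lane 1 alone (1.77%). With a library left out they were 13 to 18 (3.59 to 5.66%). In wild type over time they were 11 (4.72%) and became 18 with the block (13.3%) and 18 with the lane term (14.5%). They became 1 in lane 1 alone (0.901%), 6 in lane 2 alone (5.49%) and 4 with only the groups compared (1.52%). With a library left out they were 4 to 12 (2.29 to 9.1%). They were 4 without replicate 4 of wild type at 12 h (2.82%) or at 0 h (2.29%). They were 7 without replicate 1 (2.48%) or 3 (4.48%) of wild type at 12 h. Between lines at 12 h they were 5 (3.4%). They became 11 with the block (6.42%), 9 with the lane term (6.81%) and 9 with DESeq2 (5.4%). In lane 1 alone they were 0 (0.843%), and in lane 2 alone 2 (2.11%). With a library left out they were 3 to 6 (2.06 to 3.85%). They were 3 without replicate 3 of the inducible line (2.51%) or replicate 2 of wild type (2.06%) at 12 h. At 0 h they were 9 (1.99%). They became 28 with the block (11.3%), 27 with the lane term (12.7%) and 20 with DESeq2 (6.55%). In lane 1 alone they were 0 (0.00482%), and in lane 2 alone 20 (8.89%). With a library left out they were 7 to 17 (0.578 to 8.69%), and 17 without replicate 1 of wild type at 0 h (8.69%). In the interaction they were 1 (0.511%). They became 10 with the block (2.5%), 8 with the lane term (2.82%) and 6 with DESeq2 (1.82%). They became 0 with edgeR (0.516%), 0 without the filter (0.302%) and 0 in lane 1 alone (0.0145%). In lane 2 alone they were 2 (0.564%), and with a library left out 0 to 6 (0.255 to 2.19%).

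Log2 values reversed in lane 1 alone for EDS1 (−0.18 in the interaction, 0.070 at 0 h), NIMIN1 (0.62 at 0 h), PAD4 (−0.093 at 0 h), PR1 (−0.13 in the interaction), PR2 (−0.0027 at 12 h) and PR5 (−0.0054 at 12 h). In lane 2 alone they reversed for EDS1 (0.047 at 12 h) and, in the interaction, ICS1 (0.017), NIMIN1 (0.45) and PAD4 (−0.020). With edgeR and DESeq2 they were 0.20 and 0.19 for NIMIN1 at 0 h, −0.0036 and −0.0048 for PAD4 at 0 h, and −0.054 and −0.049 for PR2 at 12 h. A pseudocount of 5 gave 0.028 for NIMIN1 at 0 h. With a library left out, the interaction ranged from −0.018 to 0.20 for EDS1, −0.18 to 0.16 for ICS1, −0.035 to 0.34 for PAD4 and −0.37 to 0.35 for PR1. At 12 h the range was −0.088 to 0.024 for EDS1, −0.12 to 0.22 for FRK1, −0.033 to 0.30 for PAD4, −0.35 to 0.48 for PR2 and −0.10 to 0.43 for PR5. At 0 h it was −0.057 to 0.28 for ICS1, −0.39 to 0.45 for NIMIN1 and −0.19 to 0.11 for PAD4. NIMIN1 had 18 to 39 reads per group. This list covers the tested results and leaves out the members' 12 h minus 0 h differences. In lane 1 alone those of PR1 (0.23), PR2 (0.083), EDS1 (−0.041) and ICS1 (−0.028) changed sign in the inducible line. In wild type those of PR1 (0.36) and EDS1 (0.13) did. In lane 2 alone the sign changed for NIMIN1 in the inducible line (0.12) and for PAD4 in wild type (0.0065).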

Other observations

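Defence genes that respond to jasmonate and ethylene, hormones that often oppose salicylate, were measured beside the salicylate genes. Of 12 such genes, 1 rose in the inducible line (5.12% of all genes passed) and 3 in wild type (4.72%) at 12 h relative to 0 h. Between the lines 0 passed at 12 h (3.4% of all genes) or at 0 h (1.99%). Their median log2 difference between the lines was 0.39 at 12 h and 0.95 at 0 h. It was 0.13 and 0.72 over the members, whose choice can bear on these values, and 0.01 and 0.00 over all genes. With the block 2 rose in the inducible line (8.88% of all genes passed), against 3 in wild type (13.3%). With it 2 were higher in the inducible line than in wild type at 12 h (6.42%) and 5 at 0 h (11.3%). The basic chitinase gene PR3 rose to 3364 ± 1380.3 normalized counts at 12 h against 1437 ± 333 at 0 h in the inducible line (log2 1.18, limma adjusted p = 0.00438). In wild type it rose to 2026 ± 270.5 against 957 ± 225 (1.1, adjusted p = 0.0113). PR4, which encodes a hevein-like protein, rose in wild type by 1.1 (adjusted p = 0.0177), and the ethylene-response factor gene ORA59 by 0.87 (adjusted p = 0.0252). Leaving out 1 library ended the call of PR4 in 3 of 16 fits (adjusted p up to 0.0639) and of ORA59 in 6 (up to 0.0845). Of 7 genes of the secretory pathway, through which PR proteins leave the cell, 0 changed over time in either line (1 rose in wild type with the block), and 1 was higher in the inducible line than in wild type at 0 h. It was the calreticulin gene CRT3 (log2 0.45, adjusted p = 0.0498), and it missed the threshold in 15 of 16 fits that left out 1 library.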
